A study of Mus musculus with 15 samples.

Results

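The comparison described here sets olfactory epithelium taken 7 days after bilateral olfactory bulbectomy (OBX), the surgical removal of both olfactory bulbs, against olfactory epithelium of untreated mice. It rests on the 3 arrays titled OBX day 7 and the 3 arrays titled untreated, 6 of the 15 arrays of the series. All mice were male C57Bl/6 animals of 6 weeks, and each array carried total RNA pooled from 3 mice with 5 µg from each, so that 18 mice stand behind the 6 arrays and no array shows a single animal. The labels name no genetic change and no drug for either group. The other 9 arrays came from sham-operated mice at day 5 and from OBX mice at days 1 and 5, with 3 arrays in each group. No sham group of day 7 is among the labels, so untreated mice served as the control and the sham mice of day 5 as an alternative one. RNA was measured on the Affymetrix MG_U74Av2 array, and the deposited values are signals on a linear scale, 1 for each probe set.

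Olfactory sensory neurons sit in the epithelium of the nasal cavity and send their axons to the olfactory bulb. Loss of the bulb removes their target, after which mature neurons die and dividing globose basal cells, the progenitors of the tissue, give rise to new ones. Without a bulb to innervate, many new neurons do not reach or keep a mature state. Macrophages enter the tissue and clear the debris, while sustentacular cells, the supporting cells of the surface layer, and Bowman glands remain.

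Of 12422 probe sets other than array controls, 6986 had a present call on 3 or more of the 6 arrays and were tested. They represented 5427 named genes. Omp, Adcy3 and Cnga2, which mark mature sensory neurons, and Gap43, which marks immature ones, were called present on all 6 arrays. The horizontal basal cell keratins Krt5 and Krt14 were not called present often enough to be tested, and Gnal, Cyp2g1 and Cyp2a5 had no probe set named here. The share of probe sets with a present call was 49.1%, 53.4% and 53.9% on the untreated arrays and 58.8%, 57.4% and 56.5% on the OBX day 7 arrays, so the groups did not overlap in it. Its part in the changes described here was not tested. Untreated arrays correlated at 0.977 to 0.986 with each other and OBX day 7 arrays at 0.980 to 0.985, whereas arrays of different groups correlated at 0.944 to 0.960. The arrays were scanned on 2 days: all untreated arrays on the first, all OBX day 7 arrays on the second and in a fluidics run of their own. No scan day holds both groups, so no value within a scan day could be had, and a fit of all 15 arrays with scan day as a block takes its scan day estimate from OBX day 1, the group scanned on both days.

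At day 7, 1768 of the 6986 probe sets passed the test (25.3%). Of these 1016 rose (14.5%) and 752 fell (10.8%). A change of at least 2-fold besides was found for 196 (2.81%), of which 95 rose (1.36%) and 101 fell (1.45%). The median log2 change of all tested probe sets was 0.0369. With sham mice as the control 1927 probe sets passed (27.6%), and 1418 of the 1768 passed in the same direction, with 0 in the opposite one. Among genes named in the text, the calls of Ccna2, Ccr2, Cxcl5, Cyp1a2, Ddit3, Fos, Fosb, Gstm3, H2-Ab1, Iigp1, Irf9, Itga6, Kcnk2, Krt6a, Krt8, Krt17, L1cam, Ncam1, Obp1a, Pcna and Tnfrsf1a ended against sham. With scan day as a block 14 passed (0.2%), 2 higher (0.0286%) and 12 lower (0.172%), and 1755 of the 1768 kept the sign of their change. Counted by gene, 813 of 5427 rose (15%) and 589 fell (10.9%), and the counts of gene lists that follow are to be read against those shares. A signed value in parentheses after a gene is its log2 change from untreated, and one written with ± adds its SE.

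**Figure D1:**
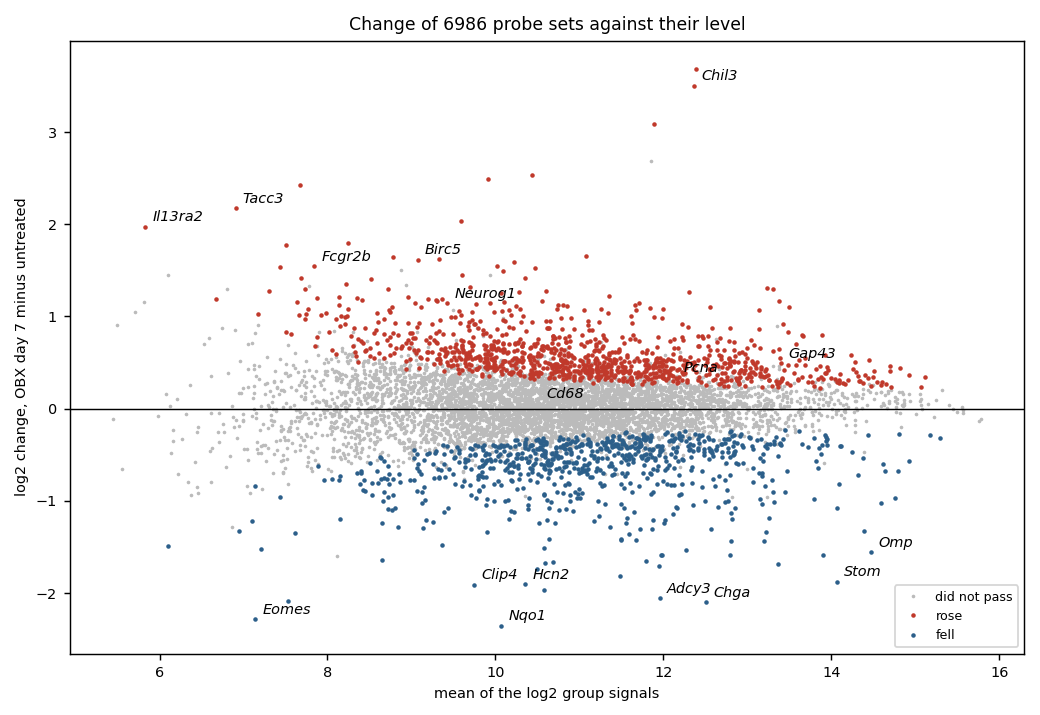
Log2 change from untreated to OBX day 7 of each of the 6986 tested probe sets (vertical axis) against the mean of the 2 groups' log2 signals (horizontal axis). Red points rose (1016), blue points fell (752) and grey points did not pass; Omp, Stom, Chga and Adcy3 lie low at high signal, and Chil3 lies near the top.

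Genes that mark mature sensory neurons were lower at day 7 as a list. Of 15 tested genes in the mature olfactory sensory neuron list 11 fell and 0 rose, with a median log2 change of −0.82 against 0.04 over all genes. The 11 are not all genes of odor detection. They include Nqo1, Ncam2 and the sodium channel Scn9a, which counts again among the ion channels below. In bulk tissue, fewer neurons and less RNA per neuron cannot be told apart. Omp, the olfactory marker protein, had signals of 38274.5, 41307.1 and 37995.6 on the untreated arrays and 13207.9, 13146.1 and 13522.5 on the OBX day 7 arrays. The groups were far apart, and the day 7 arrays lay closer together than the untreated ones. Omp fell by 2.95-fold (−1.56 ± 0.07, adjusted p = 1.35e-06).

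The enzymes and channels of odor transduction fell as well. Adcy3, the adenylyl cyclase that makes cyclic AMP when a receptor is bound, read 7488.8, 8584.4 and 8285.5 in untreated mice and 2008.8, 1826.4 and 2023.6 at day 7 (−2.05 ± 0.09, adjusted p = 1.35e-06). Cnga2, a subunit of the cation channel that cyclic AMP opens, read 10617.3, 13926.5 and 12391.6 and then 4253.2, 4011.2 and 3996.4 (−1.58 ± 0.10, adjusted p = 1.65e-05). Neither gene had a day 7 array near an untreated one. The 3 probe sets of Gnb1, a G protein subunit used in most cell types, disagreed: the brightest did not pass (0.25, adjusted p = 0.194), while the others changed by −0.51 and 1.03.

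S100a5, a calcium-binding protein abundant in these neurons, went from 36403.3, 42385.4 and 37509.6 to 17503.4, 22287.7 and 19985.9 (−0.96 ± 0.10, adjusted p = 0.000186). Reep1, whose family helps receptors to the cell surface, fell by 1.04 on the log2 scale (adjusted p = 5.69e-05), as did Pcp4l1 (adjusted p = 0.00112). Ebf2 (−0.40) and Ebf3 (−0.68, adjusted p = 0.000775), transcription factors of the Olf/Ebf family, fell, while Ebf1 of the same family did not pass (−0.02, adjusted p = 0.94). Homer2 (−0.16) and Calb2 (0.07), a calcium-binding protein, did not pass either. Of the 15 tested members 11 were lower at day 7 without overlap of the groups and 1 was higher. Over all tested probe sets 18% were lower without overlap and 24.7% higher.

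Ebf proteins bind a near-palindrome first described in the promoters of olfactory genes. The window from 250 bases before to 50 after the annotated start was taken from RefSeq (GRCm38.p6) for 9 of the 11 list members that fell, and the core of the Ebf motif, TCCCNNGGG, was searched on both strands. The core stood in 3 of the 9 genes (33.3%) and in 439 of 4413 tested genes with a promoter (9.95%). The 3 windows are shown because they hold the only matches among those 9 genes, with the match in capitals. The window of Cnga2 is chrX:71991599-71991898 on the + strand, that of Reep1 is chr6:71707431-71707730 on the + strand and that of Ebf3 is chr7:137314396-137314695 on the − strand. The matches begin at −67 in Cnga2, −66 in Reep1 and −22 in Ebf3, counted in bases from the annotated start.
Cnga2: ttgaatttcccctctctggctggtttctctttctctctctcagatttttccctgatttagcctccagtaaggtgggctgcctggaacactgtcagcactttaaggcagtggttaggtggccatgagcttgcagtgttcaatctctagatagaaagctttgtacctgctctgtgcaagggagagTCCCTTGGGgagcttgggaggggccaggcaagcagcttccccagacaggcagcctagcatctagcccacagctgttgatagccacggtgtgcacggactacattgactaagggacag
Reep1: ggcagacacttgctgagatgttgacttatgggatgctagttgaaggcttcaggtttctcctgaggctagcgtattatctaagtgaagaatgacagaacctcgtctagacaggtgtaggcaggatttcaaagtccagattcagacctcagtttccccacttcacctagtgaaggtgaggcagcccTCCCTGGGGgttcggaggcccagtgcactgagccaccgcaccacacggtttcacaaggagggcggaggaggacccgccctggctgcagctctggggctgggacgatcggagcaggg
Ebf3: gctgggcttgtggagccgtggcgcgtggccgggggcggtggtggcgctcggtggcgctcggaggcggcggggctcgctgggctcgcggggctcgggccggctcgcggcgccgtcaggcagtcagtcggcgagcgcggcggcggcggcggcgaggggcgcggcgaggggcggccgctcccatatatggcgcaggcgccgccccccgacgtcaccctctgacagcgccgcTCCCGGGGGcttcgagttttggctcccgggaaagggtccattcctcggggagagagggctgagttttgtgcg
None of the 5 odorant receptor windows in the table held the core. In those of Olfr71, Olfr93, Olfr140 and Olfr1264 the annotated start falls on the letters atg. These windows may therefore not cover the start of the transcript, and nothing is concluded about receptor promoters. A match describes letters in a window and not a bound site.

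Odorant receptors, of which each neuron expresses a single one, were lower as a group. Of 9 tested receptor genes 7 fell and 0 rose (median −0.66). In all 9 every day 7 array was lower than every untreated one, as was the case for 18% of all tested probe sets. Olfr1507 had signals of 2391.3, 2790.9 and 2618.3 and then 1106.0, 1740.5 and 1304.2 (−0.93 ± 0.16, adjusted p = 0.00286). Olfr1264 went from 2408.2, 2696.8 and 3172.4 to 1617.2, 1440.0 and 1438.8 (−0.87 ± 0.12, adjusted p = 0.00101). The changes of the 9 receptors ran from −0.93 to −0.22. Olfr15 (−0.22) and Olfr1509 (−0.24) did not pass.

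Genes shared by many kinds of neuron, some of them for synaptic release, were lower as a group. In the neuronal and synaptic list 25 of 41 tested genes fell and 4 rose (median −0.46). Chga, the granule protein chromogranin A, had signals of 12466.8, 11820.2 and 11943.8 in untreated mice and 2664.9, 3110.4 and 2699.2 at day 7 (−2.10 ± 0.09, adjusted p = 1.35e-06). Syt1, the calcium sensor of vesicle fusion, read 5429.1, 7046.3 and 6313.6 and then 2280.2, 1690.6 and 2031.5 (−1.65 ± 0.13, adjusted p = 3.93e-05). Snap25, a core part of the fusion machinery, fell by 1.21, the calcium-binding protein Vsnl1 by 1.66 and the synaptic dynamin Dnm1 by 0.90 on the log2 scale. The fusion syntaxin Stx1a did not pass (−0.15), nor did the neuronal tubulin Tubb3 (−0.02).

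Of this list, 4 genes rose, namely Scg2, Mapt, Elavl4 and Ina. Scg2, a secretogranin, went from 827.6, 822.2 and 809.8 to 1609.9, 1547.5 and 1833.6 (1.02 ± 0.11, adjusted p = 0.000294), opposite to the granule proteins Chga and Chgb (−0.98). Mapt, the microtubule protein tau (0.58), Ina, a neurofilament-like protein (0.50), and Elavl4, an RNA-binding protein of young and mature neurons (0.51), also rose.

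Of 15 tested ion channels of the neuronal membrane 9 fell and 3 rose (median −0.89). Hcn2, a channel of the hyperpolarization-activated current, read 2525.7, 2496.2 and 2573.1 and then 720.2, 730.3 and 588.2 (−1.90 ± 0.12, adjusted p = 1.17e-05). The potassium channel subunits Kcnab2 (−1.43) and Kcna5 (−1.30), the calcium channel subunit Cacnb2 (−1.42) and the sodium channels Scn8a (−1.29) and Scn9a (−0.82) fell. The 3 that rose were the potassium channels Kcnd2 (1.03), Kcnk1 (0.79) and Kcnk2 (0.38).

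Several of the largest falls were in genes less often named with odor detection. Nqo1, already counted in the mature sensory neuron list, is a quinone reductase found in a dorsal zone of the sensory neuron population. Its dimmer probe set had signals of 2263.7, 2568.4 and 2432.4 and then 482.4, 414.2 and 529.5 (−2.35 ± 0.13, adjusted p = 5.14e-06). The brighter one, by which the gene counts, fell by 1.96. Stom, a membrane protein of the stomatin family, went from 35026.8, 32730.0 and 30826.9 to 9773.5, 8649.7 and 8468.9 (−1.88 ± 0.08, adjusted p = 1.35e-06). A second, dimmer Stom probe set did not pass (−0.66, adjusted p = 0.237). Both Nqo1 probe sets and the first of Stom were among the 14 that also passed with scan day as a block, together with those for Adcy3, Reep1, Cacnb2, Plxna3 and Birc5 among the genes named here.

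Clip4, a microtubule-binding protein (−1.91), Olfm1, a secreted olfactomedin (−1.81), Synj2, a phosphoinositide phosphatase (−1.74), Ptp4a3, a protein phosphatase (−1.71), and Gldc, the glycine decarboxylase (−1.67), fell without overlap of the groups. Eomes, a T-box transcription factor known from neuronal progenitors of the brain, read 296.9, 258.1 and 385.7 and then 63.2, 67.8 and 59.5 (−2.29 ± 0.26, adjusted p = 0.000336). Those signals are from its dimmer probe set. On its brighter one, by which the gene counts, no day 7 array was called present, and the level was at least 4.02-fold lower.

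**Figure D2:**
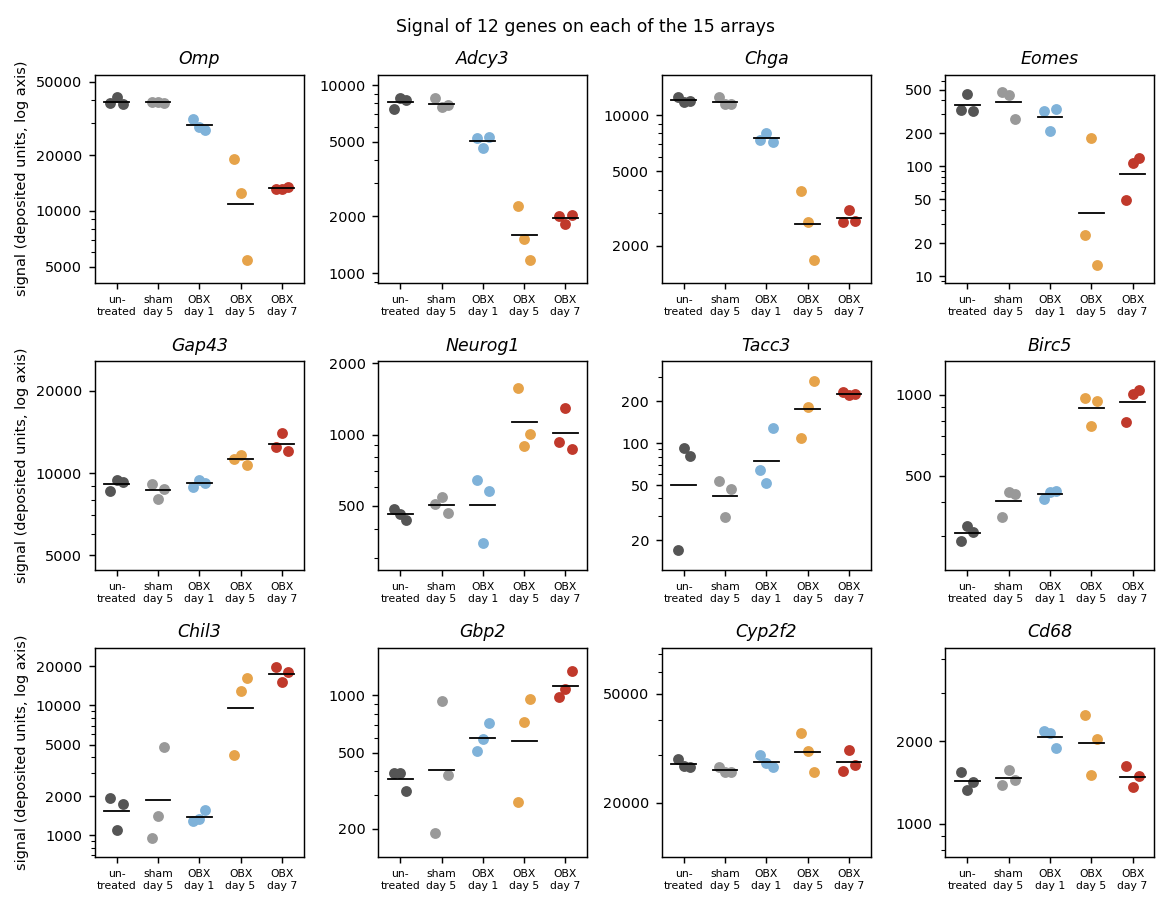
Signal of 12 genes (each panel's vertical axis, log scale, deposited units) on the 15 arrays by group, with 1 point per array and a line at the mean of the log2 signals. Omp, Adcy3, Chga and Eomes (brighter probe set) are low at OBX days 5 and 7, and Gap43, Neurog1, Tacc3, Birc5, Chil3 and Gbp2 are high at day 7. The day 7 arrays of Cyp2f2 and Cd68 overlap the untreated ones, while Cd68 on the OBX day 1 arrays (1898.7 to 2184.3) lies above them.

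Progenitor genes were higher. In the list for globose basal cells and other neuronal progenitors 20 of 34 tested genes rose and 2 fell (median 0.37). Neurog1, the transcription factor of immediate neuronal precursors, had signals of 484.4, 462.2 and 433.3 in untreated mice and 929.6, 1296.7 and 867.1 at day 7. Every day 7 array was above every untreated one, and the change was 1.14 ± 0.17 (adjusted p = 0.00147). Neurod1, which acts downstream in the same lineage, went from 1107.9, 1128.4 and 1221.5 to 2125.8, 3279.6 and 2262.0 (1.12 ± 0.16, adjusted p = 0.0011). For both genes OBX day 7 replicate 2 was the highest.

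Hes6, a partner of the proneural factors, went from 2019.9, 2431.4 and 2175.8 to 4055.3, 5000.0 and 4214.1 (1.00 ± 0.11, adjusted p = 0.000321). Mybl1, a Myb-family factor, rose 3.47-fold (1.79 ± 0.25, adjusted p = 0.00112). Sox11, a factor of newly formed neurons (0.79), Ezh2, a histone methyltransferase (0.79), Kit, the receptor on a subset of these progenitors (0.70), and Sox2, a factor of basal and sustentacular cells (0.47), also rose. Kitl, the Kit ligand, rose by 0.94 ± 0.10 (adjusted p = 0.000205). The 2 members that fell were Eomes and Id4, an inhibitor of proneural factors (−0.53).

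In the list of immature neuron and axon growth genes 17 of 39 rose and 10 fell (median 0.24). Gap43, the growth cone protein, read 8576.3, 9412.3 and 9311.3 and then 12406.8, 14055.1 and 11997.0 (0.49 ± 0.08, adjusted p = 0.00319), with no overlap. Cxcr4, a chemokine receptor of newborn neurons, went from 746.3, 787.9 and 714.3 to 1377.0, 1598.5 and 1735.1 (1.06 ± 0.12, adjusted p = 0.000395). The cytoskeletal genes Marcks (0.76), Dpysl3 (0.62), Tmsb10 (0.58) and Stmn1 (0.53) rose.

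Of the 10 that fell, several are axon guidance molecules. Plxna3, a semaphorin receptor, fell from 5860.6, 5560.1 and 6223.8 to 2312.9, 2349.2 and 2459.0 (−1.31 ± 0.09, adjusted p = 1.65e-05). Efna3, an ephrin (−1.0), Epha5 (−1.0) and Epha7 (−0.80), ephrin receptors, and the adhesion molecules L1cam (−0.77) and Ncam1 (−0.38) fell too. Stmn4, a stathmin, fell by 0.72. Dcx, a microtubule protein of migrating neurons, did not pass (−0.25).

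Genes of cell division were higher. In the mitosis and cell division list 37 of 58 tested genes rose, 1 fell and the median was 0.58. Birc5, a component of the chromosomal passenger complex, had signals of 287.0, 325.1 and 308.1 and then 789.7, 1008.0 and 1037.6 (1.61 ± 0.16, adjusted p = 0.000135). Ect2, which places the cleavage furrow, went from 789.1, 777.7 and 936.2 to 2307.3, 2609.2 and 2283.6 (1.53 ± 0.12, adjusted p = 3.46e-05). Every day 7 array lay above every untreated array for both genes.

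Cdk1, the mitotic kinase (0.95), Ccna2 (0.68) and Ccnb2 (0.72), its cyclins, Top2a, the topoisomerase of chromosome separation (1.02), and Plk4, the kinase of centriole duplication (0.98), rose. Mki67, the proliferation antigen, rose on its brighter probe set (1.26 ± 0.12), but a second probe set fell (−0.77, adjusted p = 0.012), so the array gives no single direction for it. Tacc3, a spindle protein, was called present on no untreated array and on all of day 7, and was at least 2.93-fold higher (adjusted p = 0.0201). The member that fell was Pttg1, the securin of chromosome separation (−0.49, adjusted p = 0.0491), whose groups overlapped. With each array centred on its median 0 members of the list fell.

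In the DNA replication list 12 of 35 genes rose and 0 fell (median 0.33). Dtl, an adaptor of a ubiquitin ligase that works at replication forks, read 60.3, 99.5 and 109.7 on untreated arrays, none called present, and 423.3, 497.1 and 480.2 at day 7. It was at least 5.20-fold higher (adjusted p = 0.000275). Rrm1 and Rrm2, subunits of the reductase that supplies deoxynucleotides, differed in detection. Rrm1 was called present on no untreated array and was at least 2.65-fold higher, and Rrm2 rose by 1.00 (adjusted p = 0.00979).

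The helicase subunits were not uniform, since Mcm5 (0.66) and Mcm7 (0.84) rose while Mcm2 (0.22), Mcm3 (0.31) and Mcm4 (0.01) did not pass. A dimmer probe set of Mcm3 rose (0.77, adjusted p = 0.00659). Pcna, the sliding clamp, rose from 3655.9, 4182.7 and 4332.6 to 4893.1, 5250.6 and 5186.1 (0.34 ± 0.09, adjusted p = 0.0245). The Pcna call ended with sham as the control (0.22, adjusted p = 0.101) and without any single day 7 array (adjusted p = 0.0531 to 0.0727).

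Promoters of cell cycle genes often hold CCAAT boxes and sites for E2F factors, so both were searched on both strands in the same window, as CCAAT and as the words TTTCCCGC and TTTGGCGC. Of 41 replication and mitosis genes that rose and have a promoter in the table, 28 held CCAAT (68.3%), against 1896 of 4413 tested genes (43.0%). An E2F word was found in 4 of the 41 (9.76%), against 170 of the 4413 (3.85%). Dtl, on − strand of chr1:191575495-191575794, and Mcm5, on + strand of chr8:75109259-75109558, are shown as 2 of the 4 whose windows held both kinds of match, marked by capitals.
Dtl: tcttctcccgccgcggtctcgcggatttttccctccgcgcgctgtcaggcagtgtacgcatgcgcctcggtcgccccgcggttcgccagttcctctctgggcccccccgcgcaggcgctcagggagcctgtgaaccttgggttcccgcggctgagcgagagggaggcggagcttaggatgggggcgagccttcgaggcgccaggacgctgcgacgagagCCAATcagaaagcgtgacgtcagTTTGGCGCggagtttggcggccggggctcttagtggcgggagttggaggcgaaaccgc
Mcm5: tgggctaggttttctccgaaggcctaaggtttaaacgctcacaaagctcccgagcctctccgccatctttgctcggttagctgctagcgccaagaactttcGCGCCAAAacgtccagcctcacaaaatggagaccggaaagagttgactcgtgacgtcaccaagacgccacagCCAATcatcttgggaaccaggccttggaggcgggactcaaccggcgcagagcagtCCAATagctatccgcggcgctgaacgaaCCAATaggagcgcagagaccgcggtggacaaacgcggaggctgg
The E2F word began at −8 in Dtl and at −149 in Mcm5, where it lies on the other strand, and CCAAT began at −31 in Dtl and at −77, −22 and 7 in Mcm5.

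Of 64 chromatin and gene silencing genes 19 rose and 3 fell (median 0.15). Hells, a chromatin remodeller of DNA methylation, read 196.0, 245.3 and 228.7 and then 480.4, 683.6 and 629.3 (1.41 ± 0.19, adjusted p = 0.000899). Hmgb2 (1.11), Ezh2 and its partner Eed (0.53), and the histone deacetylase Hdac2 (0.64) rose. The corepressor Tle3 (−0.56), the acetyltransferase Kat2b (−0.46) and the histone variant Macroh2a1 (−0.43) fell. The maintenance methyltransferase Dnmt1 did not pass (0.18).

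**Figure D3:**
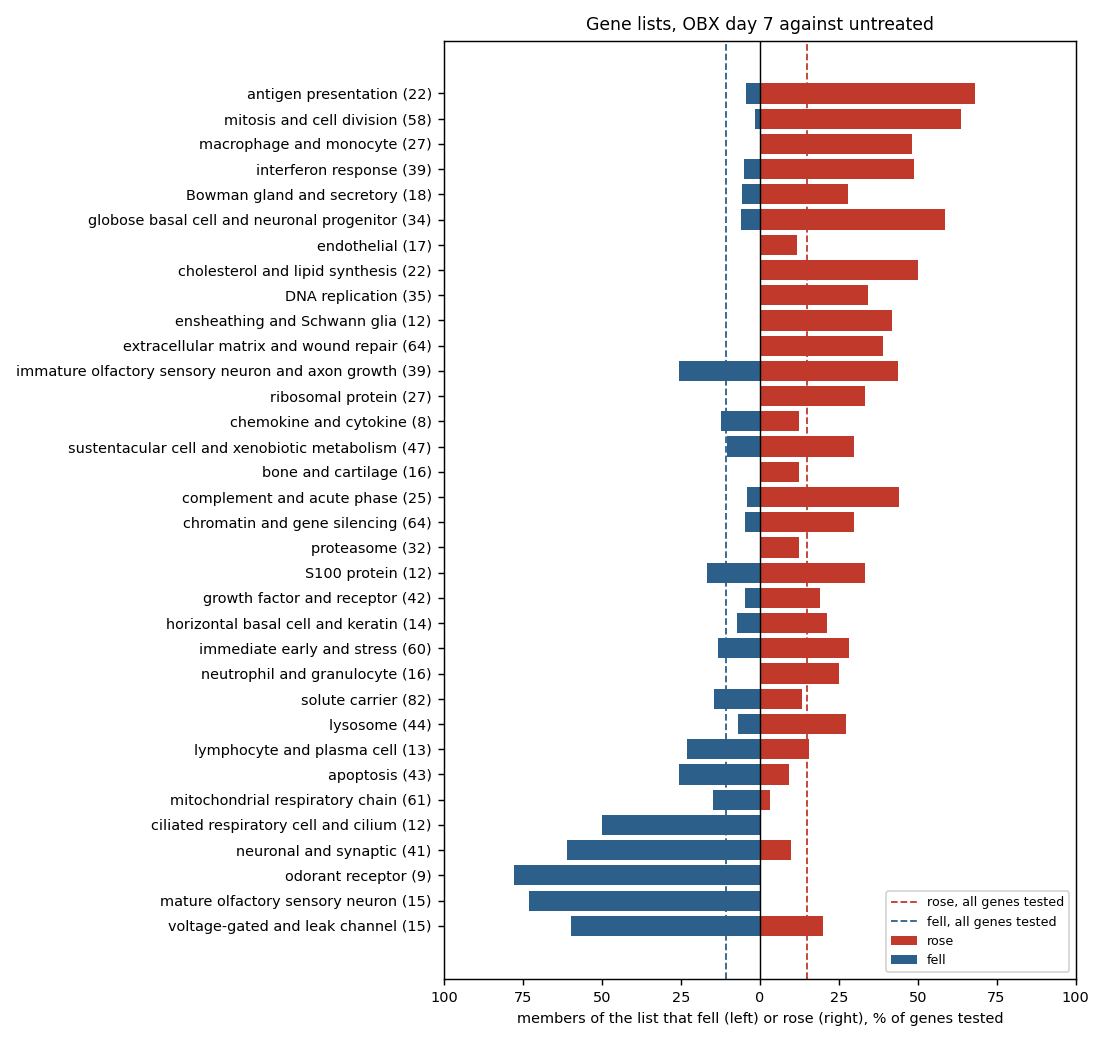
Share of the tested genes of each list that rose (red, to the right) or fell (blue, to the left) between untreated and OBX day 7, in percent, for lists with at least 8 tested genes; the number tested stands beside each name and dashed lines mark the shares over all 5427 genes (15% and 10.9%). Lists are ordered by their median change, with antigen presentation at the top and channels at the bottom.

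Antigen presentation genes were higher: 15 of 22 rose, 1 fell and the median was 0.74. B2m, which encodes the small invariant chain of class I, had signals of 5244.1, 6195.6 and 6820.6 and then 17461.5, 11157.5 and 17366.4 (1.31 ± 0.17, adjusted p = 0.00067). The groups did not overlap, and OBX day 7 replicate 2 was the lowest of its group. The same array was the lowest of its group for H2-K1 (0.83), H2-D1 (0.86) and H2-Q4 (0.99), class I heavy chains read by probe sets whose names end in _f_at, the mark of probes shared among related genes. The class II chains H2-Aa (1.23), H2-Ab1 (0.98) and H2-Eb1 (0.73), their chaperone Cd74 (1.07) and Ctss, the protease that trims it (1.08), rose. The member that fell was Canx, a chaperone of the secretory pathway in all cells (−0.68).

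Of 39 interferon response genes 19 rose and 2 fell (median 0.50). Several were interferon-induced GTPases. Gbp2, one of them, read 390.5, 392.5 and 314.2 in untreated mice and 982.2, 1075.7 and 1335.3 at day 7 (1.62 ± 0.16, adjusted p = 0.000167). Iigp1 (1.49), Gbp3 (1.14), Irgm2 (1.05), Igtp (0.97) and Irgm1 (0.92) also rose, and Ifi47 was at least 3.14-fold higher. The sham arrays spread widely for Gbp2, at 189.3, 934.4 and 384.9.

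With scan day as a block the changes of Ifi47 (0.41) and Irgm2 (0.12) were smaller, and that of Iigp1 was 0.73. The median of the interferon list was 0.28 in that fit. In the same fit it was −0.84 for the mature sensory neuron list, 0.63 for mitosis and 0.72 for antigen presentation. The transcription factors Irf8 (1.30), Irf1 (0.58) and Irf9 (0.54) rose. Ifit1 (−0.89, adjusted p = 0.00756) and Ifit2 (−1.20, adjusted p = 0.00784), antiviral RNA-binding proteins induced by type I interferon, fell. Ifit3 (0.50) and Mx1 (0.85) did not pass.

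Macrophage genes rose in 13 of 27 cases with 0 falls (median 0.51), and the summed signal of the list went from 54185 to 61841 on untreated arrays to 73643 to 79573 at day 7. Lyz2, the lysozyme of macrophages and granulocytes, read 2832.5, 2083.9 and 2679.2 and then 5446.1, 5386.6 and 5234.7 (1.09 ± 0.12, adjusted p = 0.000253). C1qb, a subunit of complement C1q, rose from 1003.1, 898.3 and 1104.1 to 2722.4, 2300.1 and 2245.1 (1.27 ± 0.12, adjusted p = 0.000126). Abca1, a cholesterol exporter (1.08), Ccr2, a receptor of recruited monocytes (1.10), and Csf1r, the receptor for the macrophage growth factor (0.41), rose. The Ccr2 call ended against sham (0.71, adjusted p = 0.13), whose arrays read 298.2, 872.0 and 472.4.

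Other defining macrophage genes did not pass. Cd68, a lysosomal glycoprotein, had signals of 1552.7, 1331.9 and 1419.2 and then 1623.8, 1360.5 and 1494.0, which overlapped (0.06 ± 0.11, adjusted p = 0.747). C1qc (−0.11), Cd14 (−0.05), Itgax (0.08) and Mrc1 (0.16) were also without a call. Arg1, an arginase of repair macrophages, was at least 2.43-fold higher and Fcgr2b, an Fc receptor, at least 2.33-fold higher.

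Chil3, a secreted chitinase-like protein of macrophages and of some epithelia, had the largest rise of the tested genes with a name. Its signals were 1922.0, 1096.7 and 1746.9 in untreated mice and 19711.7, 15129.5 and 17910.4 at day 7, a rise of 11.3-fold (3.50 ± 0.19, adjusted p = 5.14e-06). Sham arrays read 958.8, 1400.8 and 4788.5. Its near-identical neighbour Chil4 may share the probes. Of 16 genes of the neutrophil list 4 rose and 0 fell, with a median of 0.03. Their summed signal was 32778 to 51905 in untreated mice and 67879 to 86599 at day 7. Chil3 is itself a member of that list, and its mean signal went from 1589 to 17584. The list median on the day 7 arrays was 0.08, 0.41 and −0.26, and on the untreated arrays 0.33, −0.38 and −0.01. Anxa1, also a member of the extracellular matrix list, rose too (0.51, adjusted p = 0.00186), on a probe set whose name ends in _f_at. The defining neutrophil genes S100a8 (−0.30), S100a9 (−0.06), Mpo (−0.53) and Elane (−0.63) did not pass.

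Complement and acute phase genes rose in 11 of 25 cases with 1 fall (median 0.16). They included Serpina3n, an acute phase protease inhibitor (1.11), Clu, a chaperone (0.58), and Serping1, the C1 inhibitor (0.54). Cxcl5, a neutrophil-attracting chemokine, rose from 2192.4, 2106.0 and 2430.6 to 4956.0, 4748.7 and 5208.2 (1.15 ± 0.09, adjusted p = 3.93e-05), but did not pass against sham (0.45, adjusted p = 0.133).

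In the lymphocyte and plasma cell list 2 of 13 rose and 3 fell, and the summed signal was 15219 to 17210 in untreated mice and 14904 to 44340 at day 7. Jchain, the joining chain of secreted antibodies, read 739.0, 366.2 and 313.7 in untreated mice and 5892.5, 475.5 and 5885.6 at day 7. The groups overlapped, since replicate 2 lay among the untreated arrays, and the change was 2.53 ± 0.81 (adjusted p = 0.0454). Without replicate 2 it was 3.74 (adjusted p = 0.000262), and without either of the other day 7 arrays it was 1.93 and did not pass. The Jchain call also ended without any single untreated array (adjusted p = 0.0696 to 0.12), after quantile normalization (0.0555) or median centring (0.0509), with no filter (0.11) and without the variance trend (0.0871). Igha, an antibody heavy chain, followed the same arrays, at 22632.6, 707.5 and 16377.0 on day 7, and did not pass (2.69, adjusted p = 0.0819).

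Lipid synthesis genes rose in 11 of 22 cases with 0 falls (median 0.34). Idi1, an isomerase of the isoprenoid pathway, read 1012.5, 1435.9 and 1068.2 and then 2118.8, 2901.3 and 2401.0 (1.08 ± 0.16, adjusted p = 0.0015). The cholesterol enzymes Hmgcs1 (0.76), Cyp51 (0.61), Sqle (0.55) and Fdps (0.46) and the fatty acid enzymes Fasn (0.53) and Scd2 (0.46) rose. Fdft1 (−0.05) and Mvk (−0.03) of the same pathway did not pass.

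Extracellular matrix genes rose in 25 of 64 cases with 0 falls (median 0.30). Thbs2, a matricellular protein, went from 682.6, 826.6 and 877.7 to 1602.5, 1662.9 and 1353.3 (0.95 ± 0.14, adjusted p = 0.00127). Col4a1, a basement membrane collagen (0.77), Lox, which crosslinks collagen (0.72), and Acta2, smooth muscle actin (0.64), rose. The fibrillar collagens were mixed: Col3a1 (0.49) and Col5a2 (0.50) rose and Col1a1 (−0.02) and Col1a2 (0.09) did not pass.

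Genes of sustentacular cells and detoxification moved in both directions, with 14 of 47 higher, 5 lower and a median of 0.19. Sult1d1, a sulfotransferase, fell from 4614.5, 5743.1 and 5806.6 to 1993.7, 2048.1 and 1952.5 (−1.42 ± 0.11, adjusted p = 2.94e-05). The cytochrome Cyp4b1 (−0.64) and the glutathione transferases Gstm1 (−0.29) and Gstm3 (−0.34) fell. Cyp1a2 (0.45), Gsto1 (0.61), the retinaldehyde dehydrogenase Aldh1a3 (0.68) and the epithelial keratins Krt8 (0.33) and Krt18 (0.36) rose. Cyp2f2, an abundant cytochrome of the supporting cells, was near its untreated level (0.02 ± 0.08, adjusted p = 0.885).

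The secretory gland list had 5 of 18 genes higher and 1 lower. Wfdc2, a secreted protease inhibitor, went from 8059.2, 6213.1 and 7194.6 to 15649.3, 15728.5 and 16472.9 (1.16 ± 0.10, adjusted p = 5.32e-05). Ltf, lactoferrin (1.30), Tff2, a trefoil peptide (1.07), and Agr2, which folds mucins (0.70), rose. Obp1a, an odorant-binding protein of nasal glands, fell against untreated (−1.33, adjusted p = 0.00578), but against sham the adjusted p was 0.996, with 21859.5, 10332.2 and 9720.0 on the day 7 arrays.

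Cilium genes were lower in 6 of 12 cases with 0 rises (median −0.37). Arl3, a small GTPase of ciliary traffic, fell from 4417.4, 4827.1 and 4808.4 to 2996.8, 2832.4 and 2843.6 (−0.70 ± 0.08, adjusted p = 0.000498). Tekt1, an axonemal protein (−0.80), Spa17 (−0.65) and Foxj1, the factor of motile cilia (−0.51), fell.

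Of 43 cell death genes 4 rose and 11 fell (median −0.03). Bok, a Bcl2-family protein, fell from 3846.0, 3067.5 and 3134.6 to 1933.0, 1251.9 and 1906.2 (−1.0 ± 0.17, adjusted p = 0.00295). Cidea (−0.82), the death receptor Tnfrsf21 (−0.70), Bnip3 (−0.59) and Bcl2 (−0.54) fell. Casp8 (0.99), Gadd45a, a stress gene of growth arrest (1.13), Bid (0.60) and Tnfrsf1a (0.36) rose. The caspases Casp2 (−0.05), Casp6 (0.03) and Casp9 (−0.28) did not pass.

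Of 60 immediate early and stress genes 17 rose and 8 fell (median 0.08). The growth regulators Myc (0.97) and Mycn (1.00) rose, as did Fos (0.60), whose change against sham was −0.35 (adjusted p = 0.194), while Fosb (−0.68), Ier2 (−0.69) and the stress factors Atf5 (−0.72) and Ddit3 (−0.60) fell. Jun did not pass (0.04). Of 42 growth factor and receptor genes 8 rose and 2 fell, and Bmp6, a bone morphogenetic protein, fell by 1.28 on the log2 scale (adjusted p = 0.00194). The respiratory chain list had 9 of 61 genes lower and 2 higher (median −0.04), among them Ndufv3 (−0.54) and Cox5b (−0.40), which fell. Genes named Rpl or Rps and their relatives, a set that also took in the kinase Rps6kc1, rose in 9 of 27 cases with 0 falls (median 0.21).

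Markers of tissues next to the epithelium were listed as a check of the dissection. Of 3 skeletal muscle genes tested 0 passed against untreated, while Eno3 (0.29, adjusted p = 0.0262) and Tnnt1 (0.36, adjusted p = 0.0349) passed against sham. The summed signal of the list was 4980 to 6054 in untreated mice and 5494 to 6244 at day 7. Of 16 bone and cartilage genes 2 rose, with summed signals of 47749 to 51035 and 51146 to 58836. Of 12 ensheathing and Schwann glia genes 5 rose, with summed signals of 63350 to 67766 and 76594 to 85659. The glial protein S100b rose from 511.4, 636.1 and 705.5 to 1100.3, 1144.9 and 1070.6 (0.85 ± 0.14, adjusted p = 0.00289). The water channel Aqp4 rose by 0.73 ± 0.10 (adjusted p = 0.000807). Of 17 endothelial genes 2 rose, of which Cldn5, a junction protein of vessels, changed by 0.80. The endothelial sum went from 20611 to 23529 to 26615 to 28896. The part of these shifts in the changes of other lists was not tested.

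The later state was then set against day 5, with the same probe sets and all 15 arrays. Between OBX day 7 and OBX day 5, 0 of 6986 probe sets passed (0%) by limma, where 581 had an unadjusted p under 0.05. Without OBX day 5 replicate 2 the number that passed was 15. The spread at day 5 was larger, with a median SD of 0.277 on the log2 scale against 0.121 at day 7 and 0.146 in untreated mice. OBX day 5 replicate 1 stood apart from its group, at 40.5 on the second principal component where the other two lay at −14.7 and −13.2, and had the lowest median signal of the 15 arrays (620.7). Without that array the number that passed was still 0. Omp read 19232.5, 12480.0 and 5420.4 at day 5, a range that took in all day 7 arrays, and the difference was 0.28 (adjusted p = 0.68). The smallest adjusted p belonged to the odorant receptor Olfr1509 (1.07, adjusted p = 0.0879). The median difference from day 5 was 0.26 for the mature sensory neuron list, 0.17 for odorant receptors, −0.26 for macrophage genes and 0.01 over all genes.

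Against day 1, the earliest time, 329 probe sets passed (4.71%), of which 164 were higher at day 7 (2.35%) and 165 lower (2.36%). In the mitosis list 25 of 58 genes were higher at day 7 than at day 1 and 0 lower, with a median difference of 0.69. Birc5 was higher by 1.13 (adjusted p = 0.000526) and Ect2 by 2.03 (adjusted p = 0.000947). Of 15 mature sensory neuron genes 6 were lower than at day 1, and Omp, at 31600.3, 28359.3 and 27411.3 on day 1, differed by −1.13 (adjusted p = 0.0375). Of 27 macrophage genes 0 were higher and 0 lower than at day 1, and the median difference was 0.09. For the 39 interferon genes 1 was higher and the median was 0.00.

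The scan day lies across that comparison too. With OBX day 1 replicate 3, the array scanned with the day 7 group, as the only day 1 array, 33 probe sets passed, and that lone array was taken to vary like the other groups. Against that array alone Adcy3 passed (−1.44, adjusted p = 0.0356), while the calls of Birc5 (1.10, adjusted p = 0.066) and Ect2 (2.05, adjusted p = 0.0586) ended.

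**Figure D4:**
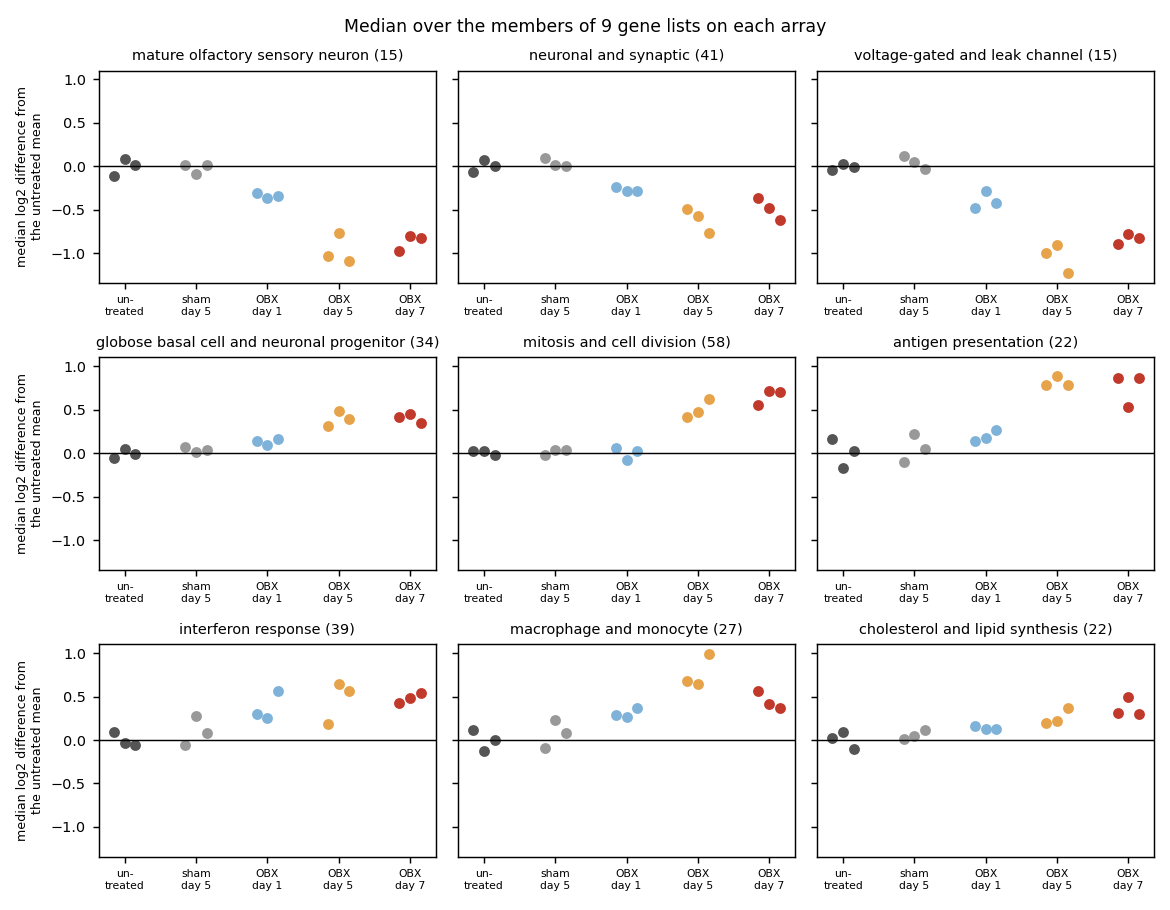
Median over the tested members of 9 gene lists of the log2 difference from the untreated mean (vertical axis), with 1 point per array in each of the 5 groups; the number of genes stands beside each list name. At OBX day 7 the mature sensory neuron list lies between −0.98 and −0.80, the mitosis list between 0.55 and 0.71 and the antigen presentation list between 0.53 and 0.87.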

How the data were processed

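The deposited signal intensities, 1 per probe set and array on a linear scale, were made by the authors with array software, which the sources used here do not name. The trimmed mean was 1500.6 to 1500.7 on every array, so the values had been scaled. The other deposited values used were the present or absent calls per array and, from the array station settings, the scan day and fluidics run. Signals were log2 transformed with a floor of 1, which no tested value reached. Probe sets with a present call on 3 or more of the 6 arrays, 66 controls left out, were fitted in limma 3.58.1 under R 4.3.3 (moderated variances with a trend; prior degrees of freedom 5.91, residual 4). P-values are two-sided, adjusted by Benjamini-Hochberg over all 6986 probe sets, with a threshold of 0.05. Comparisons with days 5 and 1 and the scan day block used all 15 arrays with 1 mean per group. The fit was tested on simulated data.

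For Mapt, Ina, Canx, H2-K1, Bcl2, Col3a1, Scd2 and Macroh2a1 the other tested probe sets of the gene did not pass. Genes were named through the platform annotation: 10833 probe sets had 1 gene, 396 several and 1193 none. A gene counts by its brightest tested probe set. Where no array of the dimmer group was called present, the change is given as "at least". The naming rule took Omp, Gap43, Neurog1, Pcna and Cd68, the 15 largest rises and falls that passed without overlap and moved alike against sham, and up to 8 members of each list with the smallest adjusted p. Other members, such as those that did not pass, were named after their values were seen. The members, the 38 lists and the tests were chosen with earlier results of these data known. Nothing in the labels ties equal replicate numbers together. The labels do not say whether the pools came from separate days, so p-values measure the spread between these pools. The number of arrays limits the precision. Alternatives covered the filter, normalization, offset, variance model, control group, batches and each array left out.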

Additional observations from a re-analysis of the deposited data

Results flagged for a closer look

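The level at day 7 differed from that at day 1 for 22 of the always named genes and largest changes, by the test of the difference between both OBX groups in the fit of all 15 arrays; the untreated mice used for each time point cancel in it. Higher at day 7 than at day 1 by log2 were Birc5 (1.13), Chil3 (3.65), Ect2 (2.03), Gap43 (0.48), H2-D1 (0.92), Mybl1 (1.69), Neurog1 (1.01), Rrm1 (1.02). Lower were Adcy3 (−1.37), Chga (−1.42), Clip4 (−2.13), Eomes (−1.57), Gldc (−1.03), Hcn2 (−1.19), Nqo1 (−2.33), Nqo1 (−1.84), Olfm1 (−1.64), Omp (−1.13), Ptp4a3 (−1.26), Stom (−1.67), Synj2 (−1.07), Syt1 (−1.06). Nqo1 stands there with its 2 probe sets, H2-D1 with the dimmer of its own, and the adjusted p-values ran from 1.14e-06 to 0.0374. With the only OBX day 1 array of the same scan day, all 22 kept their sign, and those of Adcy3, Clip4, Stom and both Nqo1 probe sets passed. No probe set passed in limma when the change from untreated at day 7 was set against the change from sham at day 5 (0 of 6986, with 262 at an unadjusted p under 0.05). OBX day 5 replicate 1, which lay apart from its group on the second principal component (40.5), enters the 15-array fits.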

How the results depend on the processing

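The count of 1768 probe sets that passed against untreated stayed within 1.5 times under most alternatives: 1389 with no filter on low values, 1763 with presence on all 3 arrays of a group, 1755 after quantile normalization (920 higher, 835 lower), 1777 after median centring (955 and 822), 1786 with 100 added before log2, 1550 without the variance trend, 2046 with array weights and 1927 with sham as the control. It moved to 979 in the fit of all 15 arrays (530 and 449) and to 14 with scan day as a block, and the cause was not tested. Without OBX day 5, an alternative chosen after seeing the data, the fit of the other 12 arrays gave 2049. Stricter thresholds gave 767 at an adjusted p under 0.01 and 196 with a change of at least 2-fold. Leaving out 1 array gave 1121 to 1467, the lowest without OBX day 7 replicate 1 (1121) and replicate 2 (1169), where fewer arrays were fitted. Against day 5 the count was 0 in each alternative but 1, and 0 to 15 with 1 array left out. Against day 1 it was 329, and 765 with only the 6 arrays of both groups, 185 to 220 with 1 array left out, and, both chosen after seeing the data, 33 with the day 1 array of the same scan day and 50 with scan day as a block. Of 240 named probe sets, scan day as a block ended the call of 226 and turned the sign of Fkbp5 and Hba-a1 (−0.03 each), the fit of all 15 arrays ended 56, sham as control 29 and no filter 31. Equal replicate numbers do not pair the arrays by the correlation of their deviations (0.004, 0.084 and −0.033), and the replicate block gave 1531 calls against untreated, 0 against day 5 and 314 against day 1.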

Other observations

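Detection calls changed along with signals, and the share of probe sets with a present call was higher on each OBX day 7 array than on each untreated one. Of the probe sets that rose, 57 were called present on no untreated array, and of those that fell 5 were called present on no OBX day 7 array. The S100 list moved in both directions. S100a3 (−1.08) fell alongside S100a5, while S100a1 (0.64), S100a13 (0.51), S100b (0.85) and S100a6 (0.33) rose. Of 82 solute carriers 11 rose (13.4%) and 12 fell (14.6%), with a median of 0.02, near the shares over all genes (15% and 10.9%). The sodium-calcium exchanger Slc8a1 fell by 1.42 on the log2 scale, and the peptide transporter Slc15a2 rose by 0.76. Among horizontal basal cell and keratin genes Cd44, a hyaluronan receptor, was called present on no untreated array and was at least 1.86-fold higher. Krt17 (0.69) and Itga6 (0.66), a laminin receptor, rose, Krt6a (−0.40) fell, and Trp63 (0.15), the defining factor of those cells, did not pass.

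Among lysosomal genes 12 of 44 rose and 3 fell, with a median of −0.00. The cathepsins Ctsh (0.86), Ctsc (0.87), Ctsz (0.60) and Ctsl (0.51) rose, the acid phosphatase Acp2 (−0.82) fell, and the membrane protein Lamp1 (−0.06) did not pass. Of 32 proteasome genes 4 rose and 0 fell. In the erythrocyte list 1 of 7 rose and 2 fell, and of 8 chemokine and cytokine genes 1 rose and 1 fell. Of 4 vomeronasal genes 1 rose and 1 fell. Their median was −2.09 on OBX day 7 replicate 1, 0.22 on replicate 2 and 0.54 on replicate 3. On the untreated arrays it was −0.33, 0.16 and 0.17. Of 4 brain and olfactory bulb genes 2 rose, with summed signals of 8251 to 8456 in untreated mice and 11730 to 13152 at day 7. Most of that sum is Aqp4, which is also in the glia list and whose mean signal went from 5450 to 9104.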
